A study of Mus musculus with 7 samples.

Results

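The genes described here encode the core proteins that carry heparan sulfate at the cell surface and the enzymes that build, sulfate, edit and cut its chains. Also counted among the enzymes are 13 Chst genes, which encode sulfotransferases of other sugar chains. All members were chosen by symbol from the deposited table (glypicans Gpc1 to Gpc6, syndecans Sdc1 to Sdc4, and the Ext, Extl, Ndst, Glce, Hs2st, Hs3st, Hs6st, Sulf, Hpse and Chst genes). This gave 45 of the 16167 genes listed, 10 of them core proteins and 35 enzymes. RNA was sequenced from whole mouse kidneys at E15.5. The 4 mutant libraries came from Six2-Cre; Irx3/5(loxP/loxP) embryos, in which Cre is driven in nephron progenitors and the Iroquois homeobox genes Irx3 and Irx5 carry loxP sites on both chromosomes. The 3 control libraries came from Irx3/5(loxP/+) littermates, given as WT in the genotype label; their label names no Cre, so the deletion and the Cre transgene cannot be told apart. How many embryos went into a library is not stated, and the p-values therefore describe only how these libraries spread, which may be technical.

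Heparan sulfate is a long sugar chain attached to glypicans, which sit on a lipid anchor, and to syndecans, which span the membrane. Ext1 and Ext2 polymerise the chain, Ndst enzymes add the first sulfate groups, Glce converts one uronic acid into another, and the 2-O-, 6-O- and 3-O-sulfotransferases finish the pattern that growth factors such as FGF, GDNF, BMP and Wnt proteins bind. Sulf1 and Sulf2 remove 6-O-sulfate outside the cell, and heparanase cuts the chain. In mice, kidneys fail to form without Hs2st1 or Glce, and kidneys without Gpc3 are dysplastic and cystic.

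Depth ran from 45539155 to 53497462 reads in listed genes in mutants (46255680 and 51702442 in the others) and from 40511920 to 69028943 in controls, and no pair of libraries agreed within counting noise. Values are FPKM (reads scaled to gene length and library depth), with an SD after ±, and n = 4 mutants and 3 controls throughout. Unless another source is named, a log2 fold change is limma's difference, mutant over control, of log2(FPKM + 1), a scale that understates the change of low genes. Irx3 and Irx5 were both targeted. Irx3 was at 6.63, 3.99, 5.57 and 6.75 FPKM in mutants, against 14.7, 14.2 and 12.7 FPKM in controls (log2 fold change -1.16, SE 0.15, limma adjusted p = 0.0144). That call was lost without control replicate 1 (limma adjusted p = 0.086) or control replicate 2 (limma adjusted p = 0.104). Irx5 was at 2.05, 0.895, 1.13 and 2.03 FPKM in mutants, against 1.36, 1.55 and 1.59 FPKM in controls (exact permutation p = 0.943). The groups overlapped, so the level of Irx5, unlike that of Irx3, did not show the labelled deletion.

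Markers of kidney cell types were all present, and their summed levels differed between the groups. The 8 nephron progenitor markers summed to 116.7 to 138.9 FPKM in mutants and 200.2 to 203.4 FPKM in controls, and the 8 podocyte markers to 120.8 to 141.7 and 187.2 to 204.6 FPKM. The 8 proximal tubule markers summed to 37.4 to 72.9 FPKM in mutants and 91.8 to 112.8 FPKM in controls, and the 7 loop of Henle markers to 25.3 to 44.5 and 59.5 to 69.4 FPKM. The 8 ureteric markers summed to 229.0 to 262.1 FPKM in mutants and 201.1 to 219.7 FPKM in controls. The 6 endothelial markers (133.3 to 143.1 against 120.6 to 129.6 FPKM) and the 6 macrophage markers (24.9 to 28.9 against 21.6 to 22.7 FPKM) did not overlap between the groups either, whereas the 8 stromal markers did (396.1 to 588.0 FPKM in mutants, 301.7 to 475.5 FPKM in controls). In the authors' deposited table, tested with DESeq2, the ureteric markers went both ways, with 3 of 8 called higher and 2 lower. It called 3 of 8 stromal markers, all higher, and 0 of the endothelial and macrophage markers. For nephron progenitors, podocytes, proximal tubule and loop of Henle it called 4, 8, 5 and 7 markers, all lower. The background of that test was 1.75% higher and 3.74% lower. For the same nephron progenitor, podocyte, proximal tubule and loop of Henle lists, limma called 4, 4, 2 and 3 markers at an adjusted p under 0.05, all lower. It called 1 ureteric marker, higher, and 0 stromal, endothelial and macrophage markers. The background of limma was 0.475% higher and 1.05% lower. None of these markers was at 0 in any library. Skeletal muscle markers summed to 7.30 to 9.69 FPKM in mutants and to 56.1, 8.41 and 8.21 FPKM in controls, so control replicate 1 stood apart. In bulk kidney, fewer cells of a type and less RNA per cell cannot be told apart, and the part of cell composition in the results below was not tested.

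Across the 39 members that passed the filter on low values (at least 1 FPKM in at least 3 libraries), limma called 0 at an adjusted p under 0.05, where the background was 1.53% of the 13466 genes tested (0.475% higher and 1.05% lower). The same limma fit gave 14 members with an unadjusted p under 0.05, 3 higher and 11 lower, where 13.7% of all genes tested had one (5.26% higher and 8.48% lower). In the authors' deposited table, DESeq2 called 12 of the 45 members (26.7%), 3 higher and 9 lower, where the background of that test was 5.49% (1.75% higher and 3.74% lower). Limma-voom on recovered reads called 3 members, all lower, where its background was 1.85%. The groups did not overlap for 16 of the 45 members (35.6%), 4 higher and 12 lower, where the background was 14.6% of all listed genes (5.91% higher and 8.65% lower). The members were chosen with earlier results of these data known, so these shares are no test of the members as a set. Among the members tested, 17 had a fold change above 0 and 22 below. Their median was -0.02, and that of all genes tested was -0.002. The median size of the change, taken without its sign, was 0.23 for the 10 core proteins and 0.089 for the 29 enzymes tested, beside 0.081 for all genes tested. For the 17 tested enzymes other than Chst, that median was also 0.089. Whether these medians differ was not tested. The log2(FPKM + 1) scale understates the change of low genes, which may bear on this contrast. All core proteins but Gpc5 averaged at least 17.65 FPKM over the libraries. Some tested enzymes were low, such as Chst13 and Hs3st3a1 at 1.35 and 1.82 FPKM.

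**Figure D1:**
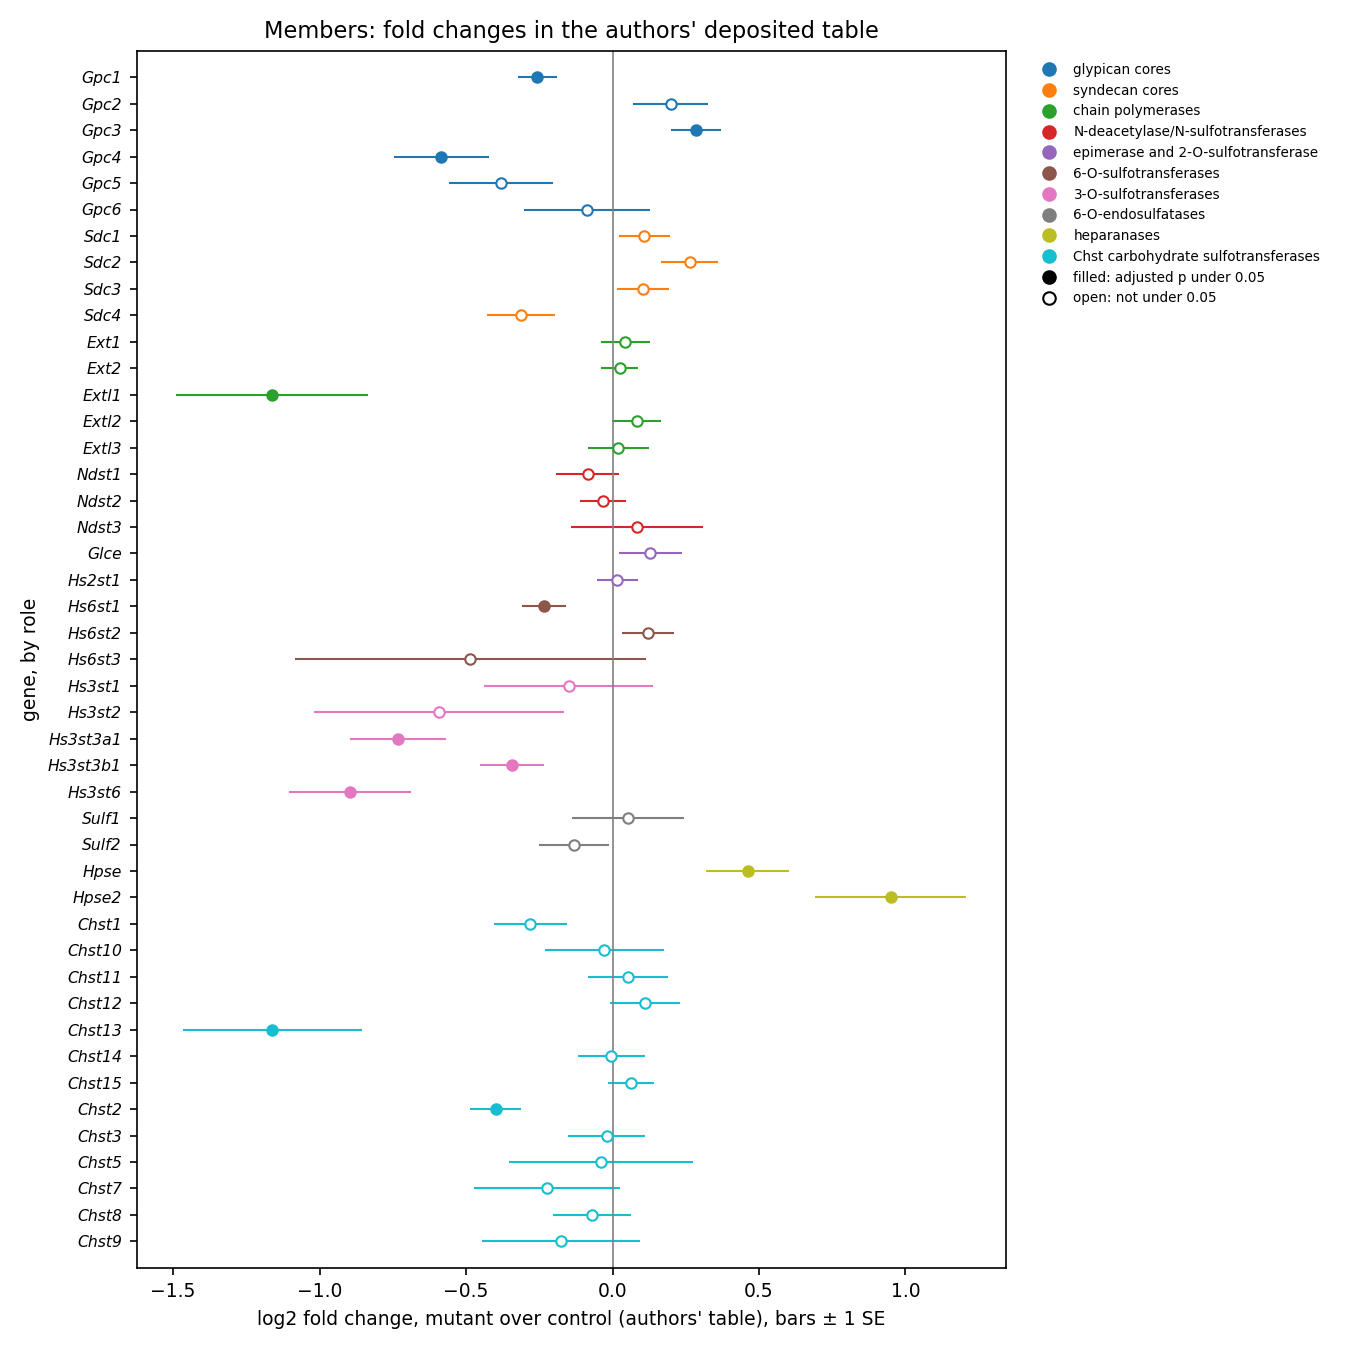
Log2 fold change of mutant over control in the authors' deposited table (x axis, points with bars of 1 SE) for the 45 members (y axis), coloured by role. Filled points, 12 in number, had an adjusted p under 0.05 in that table, and they include Gpc3, Hpse and Hpse2 above 0 and 9 members below 0.

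Among the glypicans, Gpc3 was higher and Gpc1 and Gpc4 were lower in the authors' deposited table. Gpc3 (ENSMUSG00000055653.14), a glypican that restrains growth and Hedgehog signalling, was the most abundant member by far. It was at 372.6, 306.1, 349.5 and 333.7 FPKM in mutants, against 282.5, 271.9 and 284.6 FPKM in controls. All mutants lay above all controls, and mutant replicate 1 was the highest. The mean was 340.5 ± 27.9 FPKM in mutants and 279.7 ± 6.83 FPKM in controls (SD), and its log2 fold change of 0.28 (SE 0.082) missed limma's threshold (limma adjusted p = 0.149), while the authors' deposited table gave an adjusted p of 0.023. Gpc4 (ENSMUSG00000031119.5), which takes part in Wnt and BMP signalling, was at 22.3, 18.2, 13.8 and 21.1 FPKM in mutants, against 30.8, 28.7 and 25.1 FPKM in controls. Mutant replicate 3 was the lowest, and the groups did not overlap. Its log2 fold change was -0.58 (SE 0.15, limma adjusted p = 0.115), and its adjusted p in the authors' deposited table was 0.00922. Gpc1 (ENSMUSG00000034220.8), a co-receptor for FGF ligands, was at 36.8, 34.0, 36.0 and 34.2 FPKM in mutants, against 41.3, 42.8 and 42.3 FPKM in controls. The groups were apart and each was tight, with a log2 fold change of -0.25 ± 0.057 (SE; adjusted p = 0.0769 in limma) and an adjusted p of 0.00451 in the authors' deposited table. Without mutant replicate 1, Gpc1 passed limma's threshold (adjusted p = 0.0386). With another library left out, limma adjusted p for Gpc1 rose to as much as 0.331. In the reference annotation, 18% of the 50-base words of Gpc1 transcripts lie antisense to Ankmy1, and reads of the pair may be mixed, since it is not stated whether counting used strand.

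Gpc3 and Gpc4 are neighbours on chromosome X, with no protein-coding gene between them, and the 6-O-sulfotransferase gene Hs6st2 lies close by. Their promoters are shown because these adjacent genes went opposite ways. Each window runs from 250 bases before to 50 bases after the start in RefSeq (GRCm38.p6, minus strand, Gpc3 at chrX:52613925-52614224 and Gpc4 at chrX:52164874-52165173), and capitals mark GGGCGG, the GC box bound by Sp1, or its complement.
Gpc3: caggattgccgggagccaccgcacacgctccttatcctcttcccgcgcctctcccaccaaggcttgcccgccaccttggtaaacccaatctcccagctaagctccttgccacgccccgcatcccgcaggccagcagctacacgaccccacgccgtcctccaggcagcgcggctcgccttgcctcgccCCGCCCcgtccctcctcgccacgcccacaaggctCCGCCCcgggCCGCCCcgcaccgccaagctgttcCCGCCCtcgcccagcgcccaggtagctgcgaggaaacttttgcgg
Gpc4: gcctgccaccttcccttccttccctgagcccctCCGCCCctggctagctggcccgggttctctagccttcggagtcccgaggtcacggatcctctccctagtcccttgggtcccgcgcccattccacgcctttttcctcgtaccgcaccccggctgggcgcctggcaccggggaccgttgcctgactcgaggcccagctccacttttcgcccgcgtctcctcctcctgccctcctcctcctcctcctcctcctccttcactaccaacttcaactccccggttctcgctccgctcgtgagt

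The Gpc3 window holds 4 GC boxes and 30 CpG dinucleotides, and the Gpc4 window 1 GC box and 22 CpG. Over all 32851 RefSeq promoter windows of this length 35.7% hold a GC box and the median is 7 CpG. Over the 41 windows of the 36 members with an entry 73.2% hold a GC box and the median is 22 CpG. The RefSeq windows were not limited to genes listed in the deposited table, so the sets are unlike, and their difference was not tested. The motif ACANNTGT, a palindrome bound by Iroquois proteins, was in neither window. It was in 1 of the 41 member windows, that of Chst14, and in 7.38% of all windows.

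None of the remaining glypicans was called by limma or in the authors' deposited table. Gpc5 (ENSMUSG00000022112.15), which lies next to Gpc6 on chromosome 14, was at 1.21, 1.18, 0.852 and 1.19 FPKM in mutants, against 1.46, 1.49 and 1.38 FPKM in controls, resting on 138 to 360 reads per library. All mutants lay below all controls, with mutant replicate 3 apart from the others. The log2 fold change was -0.22 (SE 0.091, limma adjusted p = 0.328). Gpc6 averaged 17.2 ± 5.38 FPKM in mutants and 18.2 ± 2.09 FPKM in controls. Its mutants alone spanned a 2.27-fold range, from 10.3 FPKM in replicate 1 to 23.3 FPKM in replicate 3, so the interval of its log2 fold change was wide (95% interval -0.69 to 0.43). Gpc2, best known from developing neurons, averaged 20.5 ± 2.53 FPKM in mutants and 17.9 ± 2.21 FPKM in controls (limma adjusted p = 0.534). Of the 50-base words of Gpc2 transcripts, 49.7% are shared with the overlapping gene model Gm43720, so the counting may have lost or moved Gpc2 reads.

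With those levels, Gpc3 made up 80.5%, 77.0%, 78.1% and 78.4% of the summed glypican FPKM in mutants, against 71.5%, 71.9% and 73.0% in controls. The other 5 glypicans summed to 92.9 ± 3.63 FPKM in mutants and 107.9 ± 3.95 FPKM in controls. These shares and sums follow from the levels given for the single genes and are no further result.

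**Figure D2:**
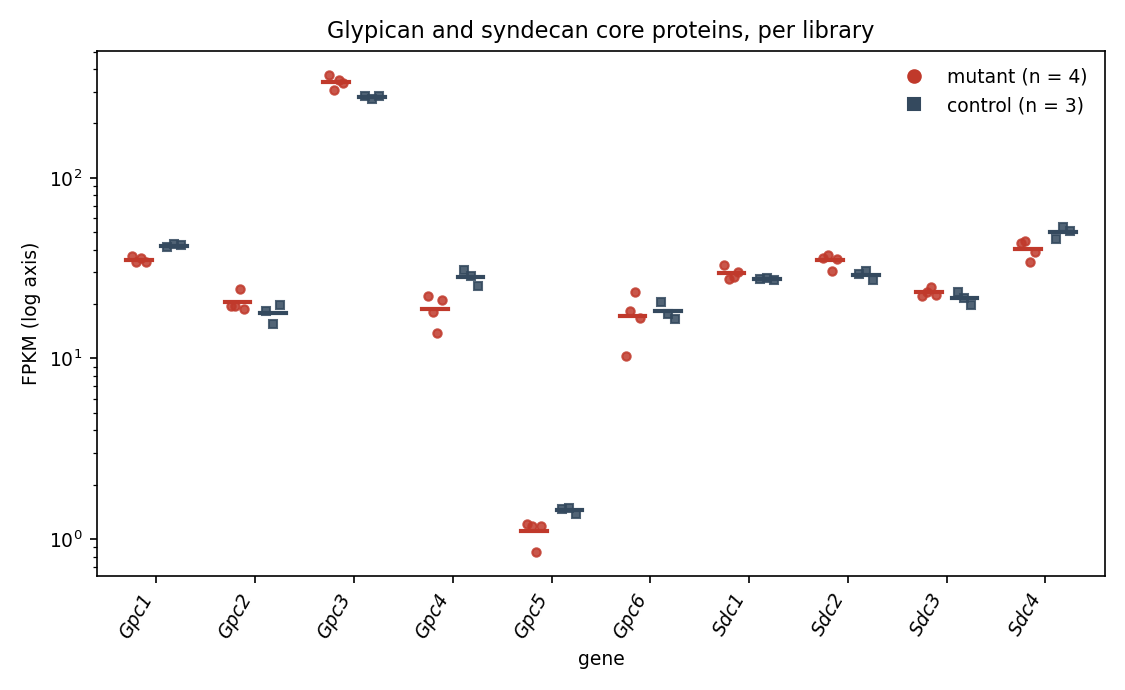
FPKM on a log axis for the 6 glypicans and 4 syndecans (x axis), with a point per library and a line at the mean, 4 mutants left and 3 controls right of each tick. Gpc3 lies above all other core proteins at 340.5 FPKM in mutants and 279.7 FPKM in controls, and Gpc5 below them at 1.11 and 1.44 FPKM.

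The syndecans were all well expressed, at 22.5 to 44.6 FPKM on average over the libraries, and none was called by limma or in the authors' deposited table. Sdc2 (ENSMUSG00000022261.7), a syndecan of mesenchymal cells, was at 35.8, 37.6, 30.5 and 35.7 FPKM in mutants, against 29.5, 30.5 and 27.3 FPKM in controls. The groups did not overlap, but mutant replicate 3 and control replicate 2 were nearly equal. The log2 fold change was 0.25 (SE 0.081, 95% interval 0.068 to 0.44, limma adjusted p = 0.188), and the adjusted p in the authors' deposited table was 0.0945. Sdc4 (ENSMUSG00000017009.4), which works with integrins at focal adhesions, was the most abundant syndecan. It was at 43.7, 44.9, 34.1 and 39.0 FPKM in mutants, against 46.1, 53.5 and 51.0 FPKM in controls. All mutants lay below all controls, with a log2 fold change of -0.31 ± 0.10 (SE; 95% interval -0.54 to -0.080, adjusted p = 0.194 in limma) and an adjusted p of 0.10 in the authors' deposited table. Sdc1, the syndecan of epithelia, averaged 29.7 ± 2.40 FPKM in mutants and 27.5 ± 0.431 FPKM in controls. Sdc3, best known from the nervous system, averaged 23.2 ± 1.19 FPKM in mutants and 21.6 ± 1.74 FPKM in controls. Limma adjusted p was 0.638 for Sdc1 and 0.643 for Sdc3, and the summed syndecan FPKM was 128.2 ± 7.65 in mutants and 128.4 ± 4.62 in controls.

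The enzymes that polymerise the chain and begin its modification were at similar levels in both groups. Extl3, which starts the heparan sulfate chain, was the most abundant of the polymerase family, at 21.0, 25.7, 27.5 and 25.6 FPKM in mutants and 24.2, 24.1 and 25.5 FPKM in controls. The groups overlapped (log2 fold change 0.013, 95% interval -0.19 to 0.22, limma adjusted p = 0.979). Ext1 averaged 12.5 ± 0.867 FPKM in mutants and 12.1 ± 0.161 FPKM in controls, and its partner Ext2 18.9 ± 0.376 and 18.6 ± 0.407 FPKM. The 95% interval of the log2 fold change was -0.12 to 0.20 for Ext1 and -0.10 to 0.15 for Ext2. Extl2, which can add an N-acetylglucosamine that stops the chain, averaged 7.86 ± 0.258 FPKM in mutants and 7.42 ± 0.255 FPKM in controls (95% interval -0.070 to 0.22).

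Extl1 (ENSMUSG00000028838.12), a glucosaminyltransferase able to lengthen chains, was the exception among the polymerases but was barely expressed. It was at 0.218, 0.138, 0.205 and 0.126 FPKM in mutants, against 0.333, 0.366 and 0.461 FPKM in controls, and rested on 28 to 101 reads per library. All mutants lay below all controls. It did not reach the filter, and its exact permutation p was 0.0286, two-sided and unadjusted, the smallest value that 4 against 3 libraries allow. Its adjusted p was 0.0113 in the authors' deposited table and 0.0538 by limma-voom without a filter, which called 1.97% of all listed genes.

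Among the enzymes that add N-sulfate, Ndst1 was at 19.5, 24.9, 25.6 and 24.0 FPKM in mutants, against 25.9, 24.7 and 24.2 FPKM in controls. Mutant replicate 1 stood below the other libraries, and the groups overlapped (log2 fold change -0.089, 95% interval -0.30 to 0.12, limma adjusted p = 0.792). Ndst2 averaged 10.6 ± 0.544 FPKM in mutants and 10.8 ± 0.215 FPKM in controls, and Ndst3, below the filter, 0.705 ± 0.173 and 0.663 ± 0.0624 FPKM. Hs2st1, the 2-O-sulfotransferase, was at 16.1, 17.2, 17.7 and 16.9 FPKM in mutants, against 16.7, 17.3 and 16.4 FPKM in controls. Its mean was nearly the same in both groups, at 17.0 ± 0.681 FPKM in mutants and 16.8 ± 0.483 FPKM in controls (95% interval -0.12 to 0.15, limma adjusted p = 0.963). Glce, the epimerase that works with it, averaged 8.78 ± 0.827 FPKM in mutants and 8.02 ± 0.660 FPKM in controls (95% interval -0.087 to 0.32).

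The 3-O-sulfotransferases add the rarest sulfate of the chain. Of the 5 members listed, all had a fold change below 0 in the authors' deposited table, as did 8131 of all 16167 genes, and 3 were called lower, where the background was 3.74%. Hs3st6 (ENSMUSG00000039628.10) was at 10.9, 5.57, 6.68 and 7.51 FPKM in mutants, against 13.3, 13.9 and 15.7 FPKM in controls. All mutants lay below all controls, with mutant replicate 1 nearest to them. The mean was 7.67 ± 2.31 FPKM in mutants and 14.3 ± 1.26 FPKM in controls, and the log2 fold change was -0.85 (SE 0.18), short of the threshold (limma adjusted p = 0.0701). The adjusted p was 0.000977 in the authors' deposited table and 0.0476 by limma-voom, and 0.0073 by limma without mutant replicate 1, the library with the highest mutant value. With another library left out, limma adjusted p for Hs3st6 rose to as much as 0.257. Hs3st3a1 (ENSMUSG00000047759.7) was at 1.22, 1.29, 1.65 and 1.504 FPKM in mutants, against 2.04, 2.44 and 2.58 FPKM in controls, and the groups were apart. The mean was 1.42 ± 0.198 FPKM in mutants and 2.36 ± 0.277 FPKM in controls, with a log2 fold change of -0.47 ± 0.098 (SE; adjusted p = 0.0557 in limma). Its adjusted p was 0.000524 in the authors' deposited table and 0.040 by limma-voom. Hs3st3b1 (ENSMUSG00000070407.6), the most abundant of the family, was at 14.8, 15.9, 17.0 and 18.3 FPKM in mutants, against 18.8, 23.2 and 20.8 FPKM in controls. Mutant replicate 4 and control replicate 1 nearly met, and the log2 fold change was -0.33 (SE 0.092, limma adjusted p = 0.132), with an adjusted p of 0.0338 in the authors' deposited table.

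Hs3st3a1 and Hs3st3b1 are close paralogs on chromosome 11, and their coding sequences hold an identical run of 401 bases. The 60 coding bases across the start of that run are shown, because reads that fall inside it cannot be told apart between the genes. The letters are from GENCODE M21 (GRCm38), from coding base 643 to 702 of Hs3st3a1 and from 637 to 696 of Hs3st3b1, and capitals mark the 1 base that differs.
Hs3st3a1: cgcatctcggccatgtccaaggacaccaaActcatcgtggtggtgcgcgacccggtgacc
Hs3st3b1: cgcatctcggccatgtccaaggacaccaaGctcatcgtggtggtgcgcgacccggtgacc

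Of the distinct 50-base words of their transcripts, 10.7% of those of Hs3st3a1 and 8.56% of those of Hs3st3b1 are shared with the other gene, and 32.1% of those of Hs3st3a1 lie antisense to F930015N05Rik. The low level of Hs3st3a1 is therefore uncertain, since neither the handling of reads with several matches nor the use of strand is stated. The promoters of the pair differ, and both are shown because both genes were lower in the authors' deposited table. The windows are from RefSeq as above (GRCm38.p6, Hs3st3a1 at chr11:64435082-64435381 on the plus strand, Hs3st3b1 at chr11:63922235-63922534 on the minus strand), with GC boxes in capitals.
Hs3st3a1: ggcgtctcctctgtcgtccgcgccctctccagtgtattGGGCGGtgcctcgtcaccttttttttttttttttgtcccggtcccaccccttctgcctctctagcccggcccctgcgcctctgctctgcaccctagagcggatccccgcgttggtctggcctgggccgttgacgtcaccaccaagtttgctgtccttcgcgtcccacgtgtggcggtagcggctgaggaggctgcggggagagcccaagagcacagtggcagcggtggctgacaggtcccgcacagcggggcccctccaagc
Hs3st3b1: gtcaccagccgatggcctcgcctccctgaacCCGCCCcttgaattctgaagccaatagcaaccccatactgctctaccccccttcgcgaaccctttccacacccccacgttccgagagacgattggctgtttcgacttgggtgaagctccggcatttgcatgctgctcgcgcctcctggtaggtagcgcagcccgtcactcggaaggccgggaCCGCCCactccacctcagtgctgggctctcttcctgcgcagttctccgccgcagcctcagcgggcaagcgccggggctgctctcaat

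The first window holds 1 GC box and the second 2, each has 23 CpG, and ACANNTGT was in neither. The other members of the family were low. Hs3st1, whose product makes the antithrombin-binding site of heparin, averaged 1.33 ± 0.328 FPKM in mutants and 1.47 ± 0.50 FPKM in controls (95% interval of the log2 fold change -0.43 to 0.28). Hs3st2, known from neurons, averaged 0.170 ± 0.0618 FPKM in mutants and 0.256 ± 0.0544 FPKM in controls (exact permutation p = 0.143). Summed over the family, 3-O-sulfotransferase FPKM was 28.9, 24.1, 26.5 and 28.8 in mutants, against 35.9, 41.7 and 40.3 in controls. Hs3st3b1 and Hs3st6, each lower in every mutant, together supplied most of this sum.

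Among the 6-O-sulfotransferases, Hs6st1 (ENSMUSG00000045216.8), the main member, was at 27.7, 28.7, 28.7 and 27.8 FPKM in mutants, against 32.1, 35.9 and 31.7 FPKM in controls. The mutants lay within 1 FPKM of each other and below all controls, of which replicate 2 was the highest. The log2 fold change was -0.22 (SE 0.063, 95% interval -0.37 to -0.082, limma adjusted p = 0.131), and the adjusted p in the authors' deposited table was 0.0419. Hs6st2 averaged 11.04 ± 0.841 FPKM in mutants and 10.2 ± 0.213 FPKM in controls (limma adjusted p = 0.616). Hs6st3 was below the filter, at 0.249 ± 0.14 FPKM in mutants and 0.347 ± 0.0783 FPKM in controls, with as few as 5 reads in a library. Hs6st1 made up 71.5 ± 1.40% of the 6-O-sulfotransferase FPKM in mutants and 75.9 ± 1.57% in controls.

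The sulfatases that remove 6-O-sulfate overlapped between the groups. Sulf2 was at 25.5, 28.4, 35.6 and 27.2 FPKM in mutants, against 33.0, 30.9 and 31.8 FPKM in controls. Mutant replicate 3 was above all controls and the other 3 mutants below them (log2 fold change -0.14, 95% interval -0.38 to 0.099, limma adjusted p = 0.672). Sulf1 averaged 4.17 ± 0.988 FPKM in mutants and 4.01 ± 0.854 FPKM in controls, and it too was highest in mutant replicate 3 (5.62 FPKM). In that library the 8 stromal markers summed to 588.0 FPKM, the highest of the 7 libraries, and the embryonic globin Hbb-y stood at 10.5% of adult Hbb-bs, against 1.34% to 3.45% in the other libraries. What part these played in its Sulf values was not tested.

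Both heparanase genes were higher in the authors' deposited table, and both are expressed at low levels. Hpse (ENSMUSG00000035273.15), the enzyme that cuts heparan sulfate, was at 2.09, 2.25, 2.20 and 1.88 FPKM in mutants, against 1.603, 1.59 and 1.39 FPKM in controls. The groups did not overlap, with a log2 fold change of 0.30 ± 0.082 (SE; adjusted p = 0.12 in limma) and an adjusted p of 0.0244 in the authors' deposited table. Hpse2 (ENSMUSG00000074852.5) encodes heparanase-2, which binds the chains without cutting them and whose loss in people causes the bladder disorder urofacial syndrome. It was at 0.548, 0.954, 0.636 and 0.612 FPKM in mutants, against 0.372, 0.343 and 0.351 FPKM in controls, and rested on 61 to 189 reads per library. All mutants lay above all controls, and replicate 2 was the highest. The mean was 0.688 ± 0.181 FPKM in mutants and 0.355 ± 0.0147 FPKM in controls, a ratio of 1.94. Hpse2 did not reach the filter; the exact permutation p was 0.0286, unadjusted and the smallest possible, and its adjusted p was 0.00827 in the authors' deposited table and 0.0837 by limma-voom without a filter. Of the 6 macrophage markers, whose sums were also higher in every mutant, 0 were called by limma or in the authors' deposited table, and their part in the heparanase values was not tested.

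**Figure D3:**
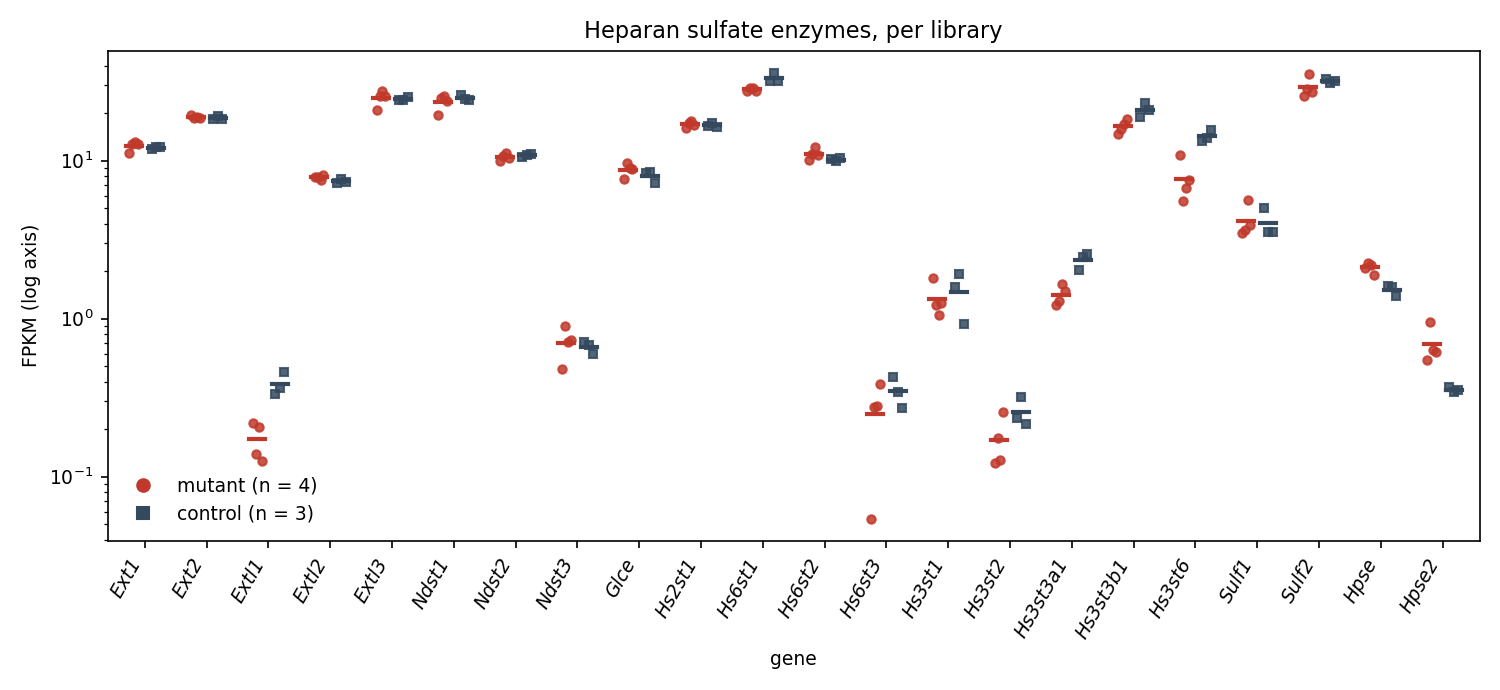
FPKM on a log axis for the 22 heparan sulfate enzyme genes (x axis), with a point per library and a line at the mean, 4 mutants left and 3 controls right of each tick. The polymerases and Ndst1, Ndst2, Glce and Hs2st1 overlap between groups except for Extl1, while Hs3st6, Hs3st3a1, Hs3st3b1 and Hs6st1 lie lower and Hpse and Hpse2 higher in mutants without overlap.

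The Chst genes encode sulfotransferases of other sugar chains, mainly chondroitin, dermatan and keratan sulfate, and 2 of the 13 listed were called in the authors' deposited table, both lower, where the background was 5.49% called and 3.74% called lower. Chst2 (ENSMUSG00000033350.8), which sulfates N-acetylglucosamine, was at 6.32, 5.50, 5.74 and 6.30 FPKM in mutants, against 7.93, 8.07 and 7.59 FPKM in controls. Both groups were tight and apart, with a log2 fold change of -0.35 ± 0.072 (SE; adjusted p = 0.0557 in limma). The adjusted p was 0.00039 in the authors' deposited table, 0.0319 by limma-voom and 0.0306 by limma without mutant replicate 1. With another library left out, limma adjusted p for Chst2 rose to as much as 0.278. Chst13 (ENSMUSG00000056643.6), a chondroitin 4-O-sulfotransferase, was at 1.06, 0.646, 0.644 and 1.18 FPKM in mutants, against 1.89, 2.51 and 1.52 FPKM in controls. The mutants lay below the controls, on 49 to 248 reads per library, with a log2 fold change of -0.66 ± 0.15 (SE; adjusted p = 0.072 in limma) and an adjusted p of 0.00567 in the authors' deposited table. Chst1, a keratan sulfate enzyme, was at 6.18, 4.93, 5.21 and 6.39 FPKM in mutants, against 7.07, 6.71 and 6.92 FPKM in controls. Its groups did not overlap, but neither limma (adjusted p = 0.262) nor the authors' deposited table (adjusted p = 0.229) called it.

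The most abundant of these genes, Chst14, makes dermatan sulfate and was at 14.8, 11.6, 12.8 and 11.8 FPKM in mutants, against 12.7, 12.5 and 13.2 FPKM in controls. The groups overlapped (95% interval of the log2 fold change -0.21 to 0.19). The chondroitin enzymes Chst11, Chst12, Chst15 and Chst3 averaged 11.3, 7.38, 8.84 and 2.35 FPKM in mutants and 10.9, 6.83, 8.46 and 2.38 FPKM in controls, and overlapped between groups as well. Chst11 spanned a 1.48-fold range among mutants, lowest in replicate 1, and a 1.009-fold range among controls. Chst5, Chst7, Chst8, Chst9 and Chst10 averaged 0.579, 1.42, 1.38, 1.57 and 1.44 FPKM in mutants and 0.60, 1.67, 1.45, 1.78 and 1.47 FPKM in controls, with overlapping groups.

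**Figure D4:**
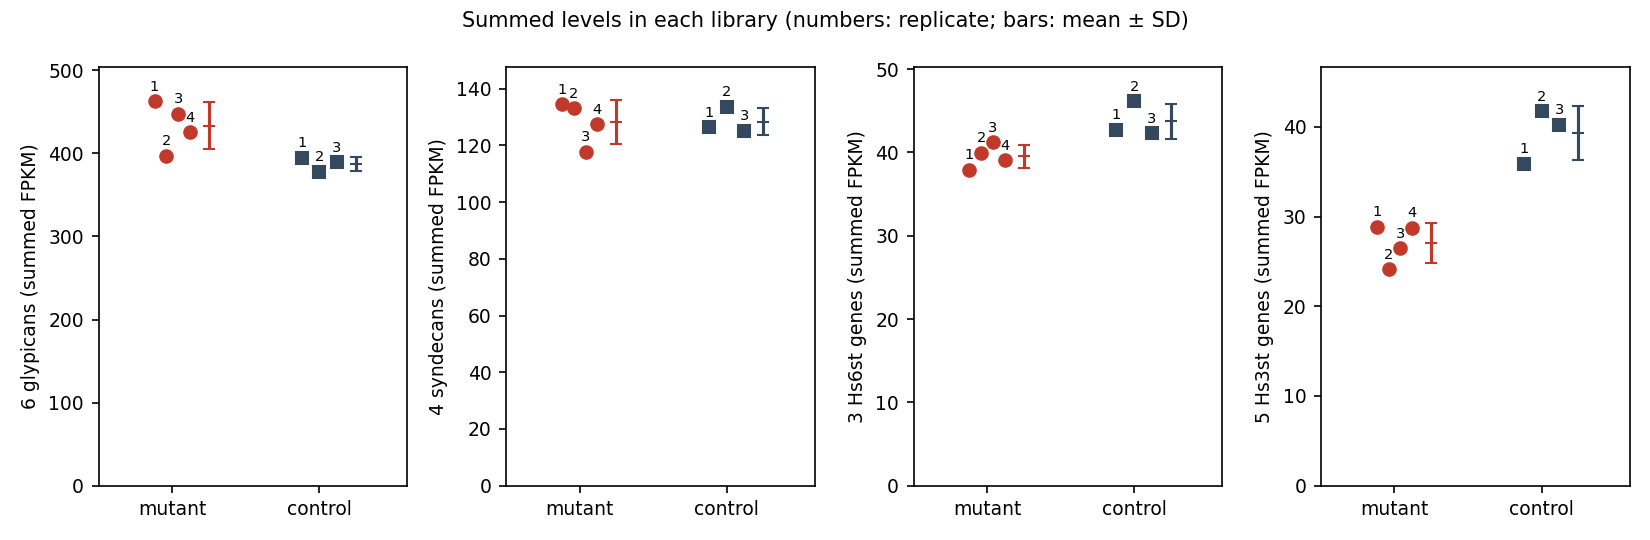
Summed FPKM of the 6 glypicans, 4 syndecans, 3 Hs6st genes and 5 Hs3st genes (y axes, each from 0) in 4 mutant and 3 control libraries, numbered by replicate, with mean and SD. The syndecan sums overlap, at 128.2 FPKM in mutants and 128.4 FPKM in controls on average. The glypican sums lie higher and the Hs6st and Hs3st sums lower in mutants, without overlap. The glypican sums nearly meet, at 397.3 FPKM in mutant replicate 2 and 394.9 FPKM in control replicate 1. The most abundant members of the glypican, Hs6st and Hs3st sums are Gpc3, Hs6st1 and Hs3st3b1, and Hs3st6 also weighs in the Hs3st sum.

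Mutant replicate 1 was the lowest mutant for 17 of the 39 members tested (43.6%, against 34.4% of all genes tested), among them Gpc6, Extl3, Ndst1, Glce and Chst11. Mutant replicate 1 was also the highest mutant for 13 (33.3%, against 35.9% of all genes tested). Mutant replicate 3 was the highest mutant for 15 (38.5%, against 25.3% of all genes tested), among them Gpc2, Gpc6, Sulf1 and Sulf2. Control replicate 2 was the highest control for 17 (43.6%, against 33.7% of all genes tested). Without mutant replicate 1, limma called 3 members lower (Gpc1, Hs3st6 and Chst2), and without any 1 of the other 6 libraries it called 0. The calls over all genes moved likewise, to 113 higher and 373 lower without mutant replicate 1, and to between 4 and 38 higher and between 7 and 86 lower without any 1 of the others.

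Other genes of the pathway came from lists of 53 genes in the table, of which 50 passed the filter. They gave 1 call by limma, the lower level of Spock2, where the background was 1.53%. In limma 11 had an unadjusted p under 0.05, 5 higher and 6 lower. Of all genes tested, 13.7% had one (5.26% higher and 8.48% lower). The authors' deposited table called Spock2, Slc26a1 and Uap1l1, all lower, which is 5.66% of the 53 and near the background of 5.49%. Spock2 (ENSMUSG00000058297.17), a testican whose core can carry heparan and chondroitin sulfate, was at 29.01, 30.9, 33.1 and 29.7 FPKM in mutants, against 45.0, 41.3 and 44.5 FPKM in controls. The groups were well apart, with a log2 fold change of -0.49 ± 0.067 (SE; adjusted p = 0.0156 in limma). That call was lost without mutant replicate 2 or 4 or any 1 of the controls, with limma adjusted p between 0.0545 and 0.0973. Spock2 lies next to Chst3 on chromosome 10, whose levels overlapped between groups. Of the 8 such further cores tested, Cd44, a hyaluronan receptor, was the other with an unadjusted p under 0.05 in limma (0.0214), at 3.09 ± 0.668 FPKM in mutants and 2.13 ± 0.323 FPKM in controls, and its groups overlapped.

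Over all 53 further genes, the groups did not overlap for 10 (18.9%), where the background was 14.6%. These were 3 of 8 of sulfate supply, 3 of 11 of UDP-sugar supply and 2 of 8 of lysosomal breakdown. The rest were 1 of 10 further cores and 1 of 7 linker enzymes, with 0 of 9 in chondroitin and dermatan chain synthesis. Among the genes of supply and breakdown, limma called 0. Slc26a1, a sulfate transporter of the proximal tubule, was at 2.46, 1.91, 1.10 and 1.12 FPKM in mutants, against 4.11, 4.30 and 2.55 FPKM in controls. Mutant replicate 1 and control replicate 3 nearly met, and the log2 fold change was -0.82 (SE 0.21, limma adjusted p = 0.109), with an adjusted p of 0.0033 in the authors' deposited table. Uap1l1, a relative of the enzyme that makes UDP-N-acetylglucosamine, was at 3.73, 2.88, 2.18 and 2.36 FPKM in mutants, against 4.14, 4.24 and 4.58 FPKM in controls (limma adjusted p = 0.108, and 0.0157 in the authors' deposited table). Without mutant replicate 1, both passed limma's threshold (limma adjusted p = 0.0435 for Slc26a1 and 0.0179 for Uap1l1). Leaving out another library gave limma adjusted p up to 0.399 for Slc26a1 and 0.334 for Uap1l1. Higher in every mutant, with an unadjusted p under 0.05 in limma and no call, were Ugdh, which makes UDP-glucuronic acid (38.6 ± 0.992 FPKM in mutants and 33.7 ± 0.724 FPKM in controls), Uxs1, which makes UDP-xylose (10.9 ± 0.399 and 9.66 ± 0.151 FPKM), and Slc35b3, which carries the sulfate donor into the Golgi (5.32 ± 0.423 and 4.54 ± 0.190 FPKM). Papss2, which makes that donor, was lower in every mutant, also without a call. Of the 8 lysosomal genes that break heparan sulfate down, 0 were called by limma or in the authors' deposited table. In limma 2 had an unadjusted p under 0.05, both lower, where 8.48% of all genes tested had one and were lower. The lowest limma adjusted p were those of Naglu (0.184, 3.88 ± 0.582 FPKM in mutants and 5.13 ± 0.426 FPKM in controls) and Hgsnat (0.246, 9.07 ± 0.141 and 10.7 ± 1.10 FPKM). Of the 7 enzymes of the linker between chain and core, limma called 0 and gave 0 an unadjusted p under 0.05, as did the authors' deposited table at its adjusted threshold; B3galt6 differed by -0.19 (SE 0.097) and Xylt1 by -0.30 (SE 0.16) on the log2 scale, Xylt1 by -0.15 without mutant replicate 1. Of the 9 genes of chondroitin and dermatan chain synthesis, 8 were tested and limma called 0. Limma gave an unadjusted p under 0.05 to 13.7% of all genes tested and to 1 of these 8. That was Dsel, a dermatan epimerase, at 0.21 (SE 0.083), and Chsy1, a chondroitin polymerase, had a log2 fold change of 0.13 (SE 0.068).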

How the data were processed

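The members and gene lists were chosen with earlier results of these data known. The labels' protocols name a Qiagen RNA kit and a strand-specific NEB library kit. Per the submitters' processing notes, STAR 2.6.0c, HTSeq 0.6.1p2 and DESeq2 were used by the authors, with FastQC 0.11.5 and Trim Galore 0.5.0, on GRCm39. The authors deposited FPKM per library (gene length not defined) and 1 DESeq2 comparison with the baseMean signal (mean normalized count, at least 18.45), log2 fold change and SE, the test score and p-value columns (14 genes have none). Reads per gene were recovered from the deposited FPKM and mean counts; 100% came out within 0.05 of a whole number, and intervals from counting would leave out PCR duplicates.

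limma 3.58.1 under R 4.3.3 compared the 13466 genes with at least 1 FPKM in at least 3 libraries, as log2(FPKM + 1), with trend and robust settings, two-sided, and Benjamini-Hochberg adjustment over all of them (threshold 0.05). Members below the filter, and Irx5, had an exact permutation test. Values per library are given for members called by limma or in the deposited table, members whose groups did not overlap, and the most abundant of each role; of each further list, up to 4 called genes or the 2 with the smallest p are named, and Cd44, Ugdh, Uxs1, Slc35b3 and Papss2, and the place of Spock2 beside Chst3, were added after their values were seen. Alternatives were a smaller pseudocount (0.1), testing without the filter, raising it to 5 FPKM, median-of-ratios scaling, quantile normalization, a replicate block, limma with neither trend nor robust settings, the deposited test, limma-voom on recovered reads (its version with no filter was chosen after seeing the data), and leaving out each library. The limma steps were tested on simulated data. Same-numbered libraries of the groups did not deviate together (correlations -0.156, 0.028 and 0.098), so the numbers were not taken as pairs. Sequences are from GENCODE M21 and RefSeq on GRCm38, used for letters and neighbours; 36 of the 45 members had a promoter entry.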

Additional observations from a re-analysis of the deposited data

Results flagged for a closer look

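Gpc5 in mutant replicate 3, at 0.852 FPKM, lay far below the other 3 mutants, which were at 1.18 to 1.21 FPKM. Its gap to the nearest of them was 0.904 of the group's range, above Dixon's 95% critical value for 4 samples. It was 1 such value among 32 genes looked at, and chance gives about 1 in 20 groups. That library also had the lowest Gpc4 (13.8 FPKM) and Sdc4 (34.1 FPKM).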

How the results depend on the processing

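Over all genes tested, limma called 64 higher and 142 lower. The lower count was 65 with a pseudocount of 0.1 and 243 with limma-voom on all genes, both counts were 31 higher and 29 lower at a minimum of 5 FPKM, and 282 higher and 604 lower in the authors' deposited table. With the replicate block 1 gene was higher and 1 lower; the numbers do not pair these libraries, and 0 members were called. Leaving out 1 library gave 4 to 113 higher and 7 to 373 lower, with the most calls without mutant replicate 1. Of the core proteins, 0 were called in limma, but 1 higher and 2 lower in the authors' deposited table, and 0 to 1 lower on leaving out 1 library. Of the enzymes, 1 was lower without trend and robust settings (Hs3st3a1), 3 by limma-voom and 3 by limma-voom with no filter, 2 higher and 7 lower in the authors' deposited table, and 0 to 2 lower on leaving out 1 library. Of the further pathway genes 0 were lower with the replicate block, 3 in the authors' deposited table, and 0 to 3 on leaving out 1 library. Irx3 had a log2 fold change of -1.24 with the replicate block (limma adjusted p = 0.0974) and -1.24 to -1.02 on leaving out 1 library. Signs turned only for genes near 0 that were called under no setting. Extl3 was -0.00085 with the replicate block and -0.035 to 0.090 on leaving out 1 library, and Hs2st1 -0.0041 to 0.040. Chst14 was 0.0097 with quantile normalization, 0.021 with the replicate block and -0.078 to 0.031 on leaving out 1 library. Irx5 was 0.031 with quantile normalization, 0.029 in the authors' deposited table and -0.12 to 0.11 on leaving out 1 library. The cause was not tested. Of the values of single genes, 471 were taken as unchanged, 24 passed the threshold newly, 9 no longer passed and 18 changed sign. Unchanged fold changes kept their direction and side of the threshold. The 471 also hold mean FPKM of mutants under median-of-ratios scaling, taken as unchanged where they moved by less than their SD. Members under 1 FPKM rest on few reads, and with 1 library fewer the exact test cannot pass the threshold.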
